A study of Mus musculus with 6 samples.

Results

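The genes described here encode nuclear subunits of respiratory complexes II to V and were chosen by name: array probes named Sdha to Sdhd, Uqcr, Cyc1, Cox4 to Cox8 or Atp5 with any ending. That gave 45 genes of 27961 gene names on the arrays, 4 in complex II, 7 in complex III, 18 in complex IV and 16 in complex V. Each gene was read by 1 probe, the brightest over all arrays, and 14 of the 45 had more than 1 probe to choose from. Of the 45, 2 names that match the rule belong to no subunit: the probe named Cox4nb reads Emc8, a member of the endoplasmic reticulum membrane complex, and the probe named Atp5s reads Dmac2l, which RefSeq no longer names as a subunit gene. The probe named Atp5f1 reads the gene now called Atp5pb.

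The respiratory chain and ATP synthase sit in the inner mitochondrial membrane. Complex II (succinate dehydrogenase) passes electrons from succinate to ubiquinone, complex III (the cytochrome bc1 complex) passes them on to cytochrome c, complex IV (cytochrome c oxidase) hands them to oxygen, and complex V (ATP synthase) uses the proton gradient that complexes III and IV help to build. Nearly all of their subunits are encoded in the nucleus, translated in the cytoplasm and imported into mitochondria, and complex II holds no subunit encoded by mitochondrial DNA.

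The data were 6 one-colour Agilent mouse arrays of RNA from germ cells made in culture, labelled as primordial germ cells (PGCs, the embryonic founders of eggs and sperm). They were grown for 12 days in differentiation medium from Dazl-GFP-V5 ES cells, derived from the V6.5 line of mixed C57BL/6 and 129SV background, and all groups share this tagged Dazl allele. DAZL is a germ cell protein that binds mRNA, and PABP1 binds the poly(A) tail of mRNA. The 3 groups of 2 arrays were total input RNA with no antibody and RNA recovered with anti-PABP1 (PABP1 IP) or with anti-GFP (GFP IP). Anti-GFP is the antibody against the tag on DAZL. Sample descriptions begin with UVinput, UVPABP1 and UVGFP, so UV crosslinking is labelled in all 3 groups and not in the PABP1 IP alone. An IP without antibody or from untagged cells was not analysed here, and the labels do not say whether replicates came from separate cultures, so the p-values rest on array-to-array spread alone, which may be technical. All values are relative to each array's 75th percentile of signal, so a level is a multiple of that percentile, a difference is in log2 units with its standard error from limma, and adjusted p-values are limma's with Benjamini-Hochberg adjustment over 14973 genes and a threshold of 0.05. Differences between groups are relative amounts of RNA among all RNA on an array, and neither a cell's expression nor the amount bound can be read from them alone.

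Between 41.5% and 52.6% of spots were well above background on an array, and no spot was saturated. The number of arrays limits precision: the standard error of a difference ran from 0.15 to 0.98, with a median of 0.21. Dazl was 13.9-fold higher in the GFP IP than in the input (log2 difference 3.80 ± 0.26, limma adjusted p = 0.00143). Of the 3 genes read as checks of the IPs (Dazl, Pabpc1 and Malat1), 1 was higher and 1 lower in GFP IP against input. In PABP1 IP against input none of them was higher and 2 were lower. Of 9 germ cell markers on the arrays, 8 were above background in both inputs and Ddx4 was not. Markers of other cells were present too: 8 of 12 cardiac and skeletal muscle genes, 5 of 6 fibroblast genes, 2 of 6 neural genes and 0 of 6 visceral endoderm genes were above background in both inputs. Both inputs, PABP1 IP replicate 1 and GFP IP replicate 2 lay on slide 1, while PABP1 IP replicate 2 and GFP IP replicate 1 lay on slide 2.

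Of the 45 genes, 43 passed the brightness filter (both arrays of some group well above background) and were tested, and 42 were above background on all 6 arrays. Cox4i2 and Cox8c, isoforms best known from lung and testis, were not tested. Cox4i2 ran at 0.123 and 0.0602 in the input, 0.0593 and 0.0230 in the PABP1 IP and 0.0103 and 0.0278 in the GFP IP, well above background on no array. Cox8c ran at 0.0535 and 0.0226 in the input, 0.0760 and 0.0754 in the PABP1 IP and 0.0181 and 0.0240 in the GFP IP, well above background on PABP1 IP replicate 2 alone. The remaining exception, the muscle isoform Cox8b, was above background on both PABP1 IP arrays but on only 1 input and 1 GFP IP array, so it entered the test through the group where it was high.

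RNA from most of these genes was more abundant in the PABP1 IP than in the input and less abundant in the GFP IP than in either. In the PABP1 IP, 33 of the 43 genes were higher than in the input, none was lower and 10 did not pass the test, where 53.9% of all genes tested were called, 30.1% higher and 23.8% lower. In the GFP IP, 1 gene was higher than in the input (Sdhc), 29 were lower and 13 did not pass, where 55.1% of all genes were called, 18.5% higher and 36.6% lower. Between the IPs, 40 of 43 were lower in the GFP IP, none was higher and 3 did not pass, where 63.6% of all genes were called, 41.3% lower and 22.3% higher. The 3 comparisons share arrays, so these counts are not independent. The 33 and the 40 include Cox8b, which passed the filter through the PABP1 IP alone. The 29 and the 40 include Uqcrq, whose 2 probes disagreed. With only genes above background on all 6 arrays (42 of these among 11784), 33 were higher and none lower in PABP1 IP against input. In that fit 32 were lower and 1 higher in GFP IP against input, and 39 were lower between the IPs. Of all 11784 genes in it, 3998 were higher and 3333 lower in PABP1 IP against input. In GFP IP against input 5355 of them were lower and 2381 higher, and between the IPs 5539 were lower.

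The median log2 difference of the 43 genes was 1.17 in PABP1 IP against input, where the median of all genes was 0.12. It was -1.01 for the GFP IP against the input, where all genes had -0.51, and -2.23 between the IPs, where all genes had -0.58. The median kept its direction under each scaling tried, but its size did not: it ran from 0.51 to 3.45 in PABP1 IP against input, from -1.01 to -0.0064 in GFP IP against input, and from -0.81 to -3.50 between the IPs. The shift against the input in the GFP IP is the least settled of the 3. Scaling to 8 spike-in probes left 0 of the 43 genes lower there and put Atp5c1, Atp5f1, Atp5g1, Atp5g2, Atp5g3, Atp5l, Cox6a2 and Cox6b1 above 0 without passing the test. Quantile normalization left 15 lower, and leaving out either input replicate left 17. In PABP1 IP against input, quantile normalization left 19 higher, and leaving out input replicate 1 or 2 left 22 or 21. Calls over all genes moved too. Those lower in GFP IP against input went from 5479 to 4476 under quantile normalization and to 325 under spike-in scaling. Those higher in PABP1 IP against input went from 4502 to 4192 under quantile normalization. Without input replicate 1 or 2, the median of the 43 relative to all genes was -0.54 or -0.51 in GFP IP against input, beside -0.51 with both. Of the 43, 23 were both higher in the PABP1 IP and lower in the GFP IP than in the input, both comparisons using the same input arrays. The share of all genes called in both ways was not counted, so no excess can be read from the 23.

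**Figure D1:**
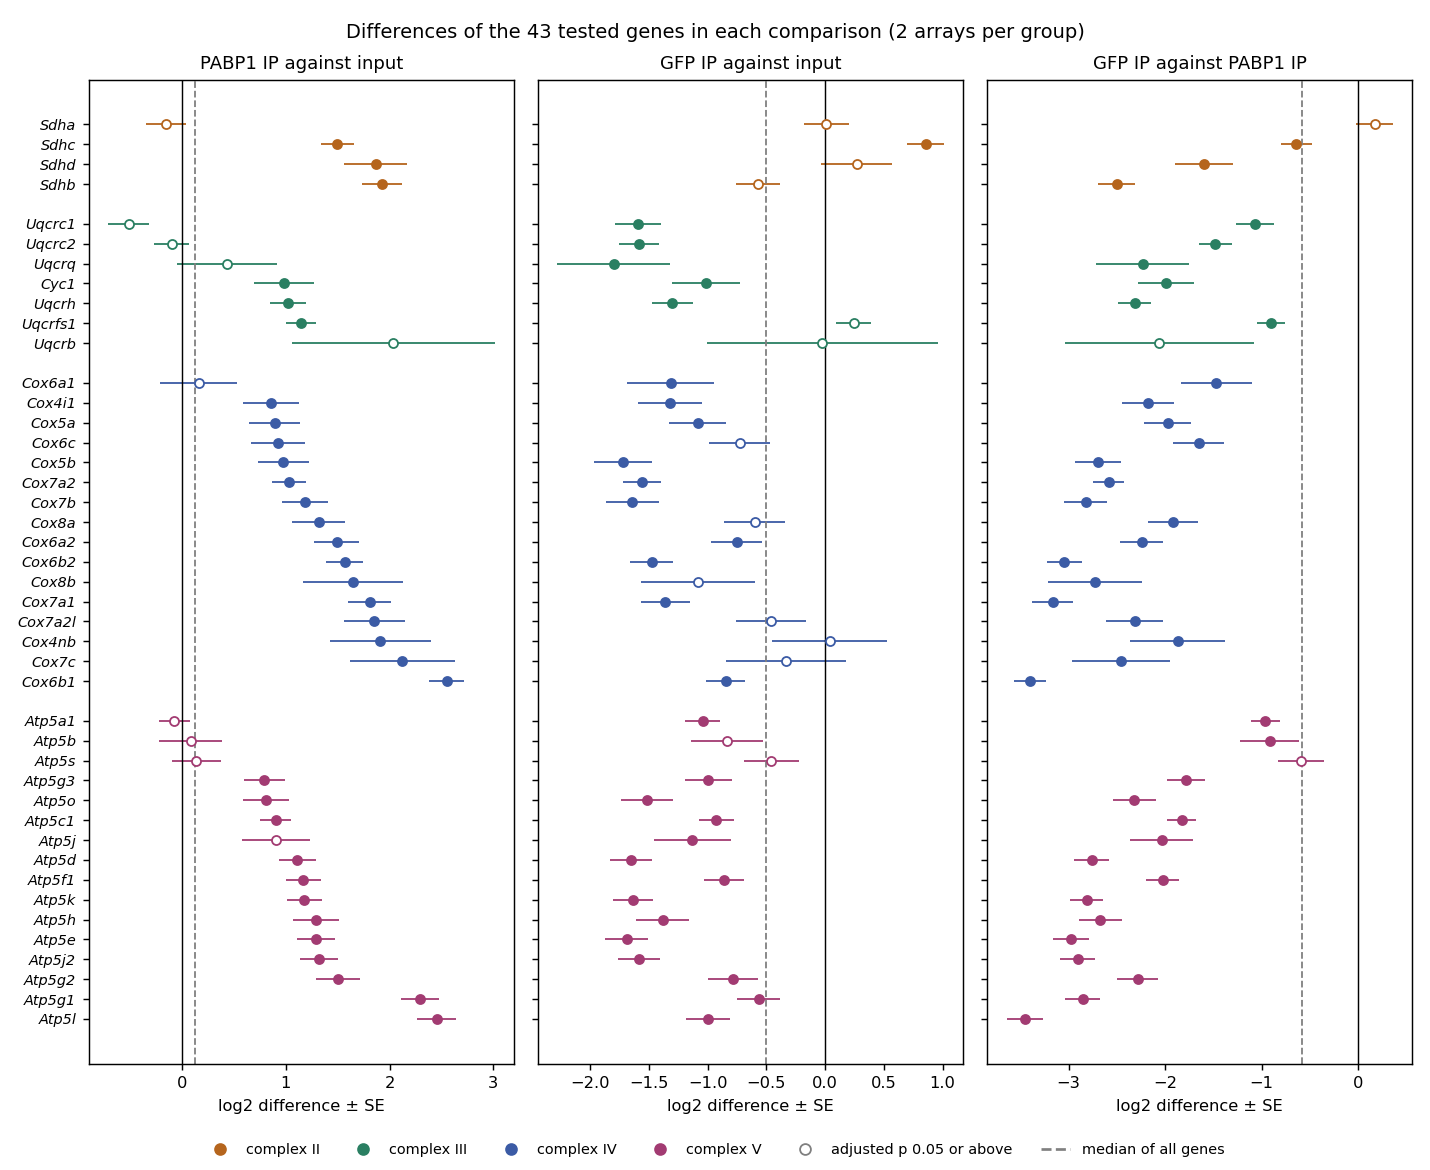
Log2 difference with its standard error for the 43 tested genes (rows, grouped by complex) in each comparison of 2 arrays against 2; filled points have a limma adjusted p under 0.05, and the dashed line is the median of all genes. Complexes III to V lie mostly right of the line in PABP1 IP against input and left of it in both GFP IP panels, while in GFP IP against input complex II lies around 0.

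Complex II differed among its own 4 subunits. Sdha is the flavoprotein that oxidises succinate, Sdhb carries the iron-sulfur clusters, and Sdhc and Sdhd anchor the enzyme in the membrane and bind ubiquinone and haem. Against the input in the PABP1 IP, Sdhb, Sdhc and Sdhd rose and Sdha did not pass the test. Against the input in the GFP IP, Sdhc rose and the other 3 did not pass.

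The level of Sdha was 2.72 and 2.23 in the input, 2.09 and 2.34 in the PABP1 IP and 2.69 and 2.29 in the GFP IP. These values overlap between all groups: the log2 difference from the input was -0.16 ± 0.19 (adjusted p = 0.522) in the PABP1 IP and 0.012 ± 0.19 (adjusted p = 0.962) in the GFP IP. Sdha was also 1 of only 3 genes not called between the IPs, at 0.17 ± 0.19 (adjusted p = 0.456), and the only 1 of the 43 not lower in the GFP IP than in the PABP1 IP on both slides. A second probe for Sdha gave 0.21 and -0.37 for the PABP1 IP and the GFP IP against the input and -0.58 between the IPs, none past the threshold.

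The level of Sdhb was 14.6 and 12.3 in the input, 50.5 and 51.5 in the PABP1 IP and 10.1 and 8.08 in the GFP IP. Both PABP1 IP arrays lay above all others and both GFP IP arrays below the input, with log2 differences of 1.93 ± 0.19 (adjusted p = 0.00137) and, just outside the threshold, -0.57 ± 0.19 (adjusted p = 0.0504). Between the IPs the difference was -2.50 ± 0.19 (adjusted p = 0.00051), the largest of complex II.

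The level of Sdhc was 7.91 and 7.25 in the input, 22.6 and 20.1 in the PABP1 IP and 13.7 and 13.7 in the GFP IP. No groups overlapped, and in the main setting Sdhc was the single gene of the 43 called higher in the GFP IP, by 1.81-fold (0.85 ± 0.16, adjusted p = 0.00852). Under quantile and cyclic loess normalization Uqcrfs1 was called higher there too, and with normexp background correction both Uqcrfs1 and Sdhd were. Sdhc rose further in the PABP1 IP, by 2.82-fold (1.50 ± 0.16, adjusted p = 0.00158). The difference of its GFP IP from its PABP1 IP was -0.64 ± 0.16 (adjusted p = 0.0168). This last direction turned to 0.093 under cyclic loess normalization, and the call in the GFP IP against input was lost without either input replicate.

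The level of Sdhd was 17.9 and 20.4 in the input, 58.4 and 83.1 in the PABP1 IP and 29.1 and 18.3 in the GFP IP. The PABP1 IP lay above both other groups (1.87 ± 0.30, adjusted p = 0.00515 against input), and the GFP IP overlapped the input (0.27 ± 0.30, adjusted p = 0.469). In both IPs Sdhd was higher on slide 2. With normexp background correction it was called higher in GFP IP against input (0.83, limma adjusted p = 0.0317).

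The promoter of Sdha is shown because Sdha stood at the low end of the PABP1 IP comparison and its promoter holds several copies of a motif of nuclear respiratory factor 1 (NRF1), a transcription factor known for driving respiratory chain genes. It lies on the minus strand of chromosome 13 in GRCm38.p6, chr13:74350241-74350390, the 150 bases before the gene's start in RefSeq's annotation, with each match to GCGCA and GCGC joined by any base in capitals.
Sdha: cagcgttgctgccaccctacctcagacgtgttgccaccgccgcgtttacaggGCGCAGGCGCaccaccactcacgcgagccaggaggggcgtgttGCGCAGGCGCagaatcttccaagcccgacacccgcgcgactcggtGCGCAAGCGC

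Of 45 genes, 33 had a promoter in the RefSeq table (250 bases before to 50 after the start). That motif (GCGCA, any base, GCGC), on either strand, occurred in 10 of these 33 (30.3%) and in 5.19% of the promoters of all 27025 genes in the table. CCGGAAG on either strand, the core of sites for ETS factors such as GABPA, occurred in 11 (33.3%) and in 9.93% of all promoters. Either motif occurred in 17 of 33 (51.5%), 4 of which held both, against 14.0% of all. A match describes the letters and shows no binding. The 150 bases before the start were also read for Uqcrc1, the lowest tested gene in PABP1 IP against input, and for Atp5l, next to the highest. Neither held a match to either motif in these 150 bases. Over the longer stretch used for the counts, Uqcrc1 is among the 10 with the NRF1 motif and Atp5l among the 11 with CCGGAAG. Only the stretches of Sdha and Cox6b1 are printed.

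In complex III, Cyc1, Uqcrfs1 and Uqcrh rose in the PABP1 IP, the core proteins Uqcrc1 and Uqcrc2 did not pass the test there, and most of the complex fell in the GFP IP. Against the input, 3 of 7 rose in the PABP1 IP and 4 did not pass the test, with a median of 0.98. In the GFP IP, 5 of 7 fell and 2 did not pass, with a median of -1.30. Between the IPs, 6 of 7 were lower in the GFP IP, with a median of -1.99. The 5 and the 6 include Uqcrq, whose other probe was called the opposite way between the IPs. With the mean of its 2 probes Uqcrq passed neither comparison.

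Uqcrc1 and Uqcrc2 are the large core proteins on the matrix side. The level of Uqcrc1 was 537 and 460.1 in the input, 395 and 305 in the PABP1 IP and 164 and 166 in the GFP IP. The PABP1 IP lay below the input without passing the test (-0.52 ± 0.20, adjusted p = 0.0739), and the GFP IP lay 3.01-fold below the input (-1.59 ± 0.20, adjusted p = 0.00296). A second probe gave similar differences, -0.37 and -1.52.

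The level of Uqcrc2 was 74.1 and 68.6 in the input, 71.3 and 61.8 in the PABP1 IP and 22.3 and 25.3 in the GFP IP. The PABP1 IP overlapped the input (-0.10 ± 0.17, adjusted p = 0.644), and the GFP IP fell below both (-1.58 ± 0.17, adjusted p = 0.00235 against input, -1.48 ± 0.17, adjusted p = 0.00124 against the PABP1 IP). Both core proteins were called lower than the input in the PABP1 IP under quantile normalization, at -1.20 (adjusted p = 0.0024) for Uqcrc1 and -0.66 (adjusted p = 0.0217) for Uqcrc2, and under cyclic loess, at -1.13 (adjusted p = 0.00246) and -0.53 (adjusted p = 0.0388). For Uqcrc1 the direction between the IPs depends on the scaling: it was -1.07 ± 0.20 (adjusted p = 0.006) here, 0.33 under quantile and 0.40 under cyclic loess normalization.

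Cyc1 (cytochrome c1) and Uqcrfs1 (the Rieske iron-sulfur protein) carry the electrons. The level of Cyc1 was 121 and 109.8 in the input, 275 and 187 in the PABP1 IP and 46.7 and 69.9 in the GFP IP. It rose in the PABP1 IP (0.98 ± 0.29, adjusted p = 0.0365) and fell in the GFP IP (-1.01 ± 0.29, adjusted p = 0.0331), by close to the same factor.

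The level of Uqcrfs1 was 23.5 and 23.7 in the input, 53.0 and 51.5 in the PABP1 IP and 28.7 and 27.1 in the GFP IP. It rose in the PABP1 IP (1.15 ± 0.15, adjusted p = 0.00253) and did not pass the test in the GFP IP (0.24 ± 0.15, adjusted p = 0.204), where both arrays lay slightly above both inputs. The GFP IP stayed below the PABP1 IP (-0.91 ± 0.15, adjusted p = 0.00392), but under cyclic loess normalization that difference was 0.030.

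Uqcrh, the hinge protein, assists contact with cytochrome c, and Uqcrb and Uqcrq are small accessory subunits. The level of Uqcrh was 439 and 402 in the input, 872 and 831 in the PABP1 IP and 187 and 156 in the GFP IP. Its groups did not overlap, with 1.02 ± 0.17 (adjusted p = 0.0058) in PABP1 IP against input and -1.30 ± 0.17 (adjusted p = 0.00338) in GFP IP against input.

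The level of Uqcrq was 752 and 711 in the input, 1627 and 599 in the PABP1 IP and 185 and 239.7 in the GFP IP. The PABP1 IP arrays straddled the input (0.43 ± 0.48, adjusted p = 0.488), and the GFP IP lay below it (-1.80 ± 0.48, adjusted p = 0.0267), the lowest value of all 43 genes in that comparison. The other probe for Uqcrq gave -2.64 and -0.98 for the same comparisons. Between the IPs the probe read here had -2.23 ± 0.48 (adjusted p = 0.0106) and the other 1.66 (limma adjusted p = 0.0291 over all probes), called in the opposite direction. With the mean of both probes Uqcrq passed neither that comparison (-0.29, adjusted p = 0.617) nor the GFP IP against the input (-1.39, adjusted p = 0.0578), so its values cannot be assigned to the gene.

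The level of Uqcrb was 10.2 and 10.9 in the input, 19.3 and 97.2 in the PABP1 IP and 21.7 and 4.97 in the GFP IP. In each IP the slide 2 array was far higher than the slide 1 array, by 2.33 in the PABP1 IP and 2.13 in the GFP IP on the log2 scale. The large spread left no comparison past the threshold (2.04 ± 0.98, adjusted p = 0.136 for the PABP1 IP and -0.023 ± 0.98, adjusted p = 0.986 for the GFP IP against the input, and -2.06 ± 0.98, adjusted p = 0.118 between the IPs). With slide as a block Uqcrb passed all 3: it was 0.92 (adjusted p = 0.00598) in PABP1 IP against input, -1.14 (adjusted p = 0.00388) in GFP IP against input and -2.06 (adjusted p = 0.000329) between the IPs. Within each slide the GFP IP lay below the PABP1 IP by nearly the same amount, -1.96 on slide 1 and -2.16 on slide 2.

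**Figure D2:**
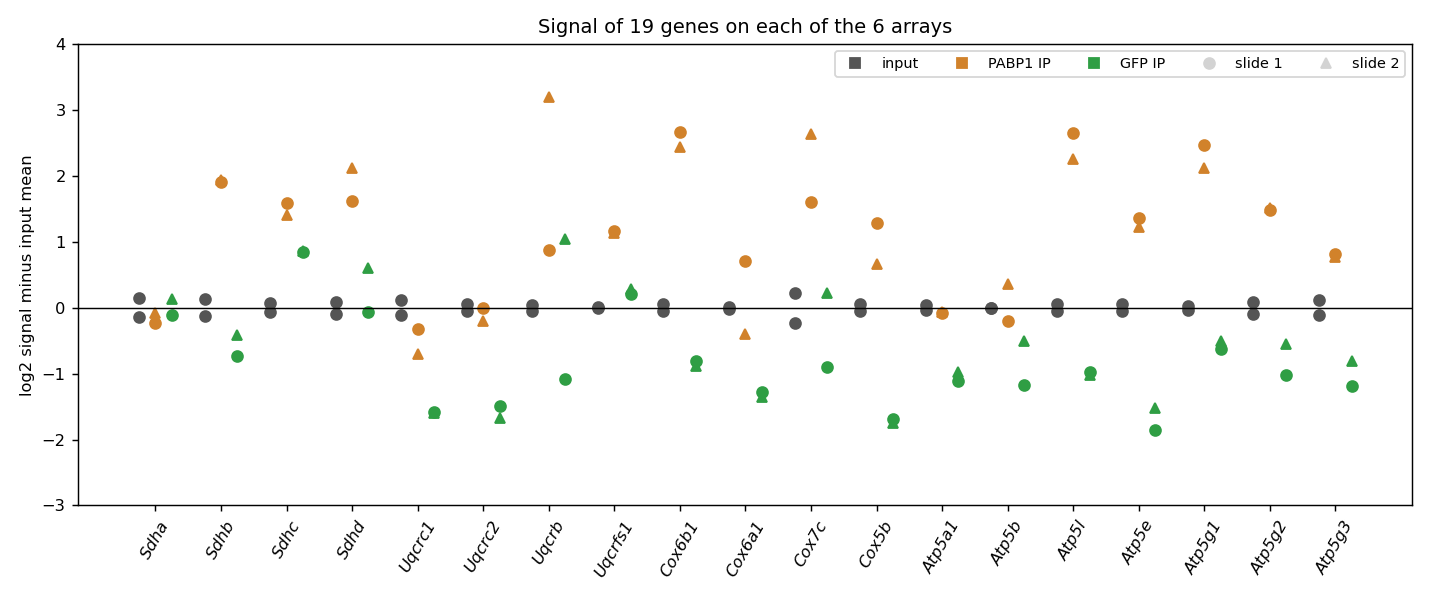
Log2 signal of 19 of the genes on each array, minus the gene's mean over both inputs; colours mark the groups, circles slide 1 and triangles slide 2. The triangles of Uqcrb stand over 2 log2 units above the circles of the same IP, and those of Cox7c about 1, while for Sdhb, Uqcrfs1 and Atp5g3 the 2 arrays of the PABP1 IP lie close together.

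Complex IV passed the test upwards in the PABP1 IP in all but 1 of its tested genes. Of the 16, 15 rose there and Cox6a1 did not pass, with a median of 1.40. The 15 include Cox8b, which passed the brightness filter through the PABP1 IP alone. Against the input in the GFP IP, 10 fell and 6 did not pass, with a median of -1.08. All 16 were lower in the GFP IP than in the PABP1 IP, with a median of -2.39. Leaving out Cox4nb, which is no subunit, 14 of 15, 10 of 15 and 15 of 15 passed in these directions, with Cox8b still among the 15.

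Cox6b1 faces the intermembrane space at the contact between the monomers of the enzyme. The level of Cox6b1 was 7.24 and 7.82 in the input, 47.7 and 40.7 in the PABP1 IP and 4.07 and 4.31 in the GFP IP. Both PABP1 IP arrays stood 5.86-fold above the input (2.55 ± 0.17, adjusted p = 0.000871), the largest rise of the 43 genes, while both GFP IP arrays stood below it (-0.85 ± 0.17, adjusted p = 0.0102). Between the IPs the gap was 10.5-fold (-3.40 ± 0.17, adjusted p = 0.000459). Its promoter is shown as that of the highest of the 43 genes in the PABP1 IP. It lies on the minus strand of chromosome 7 in GRCm38.p6, chr7:30626115-30626264, the 150 bases before the RefSeq start, with the reverse complement of CCGGAAG in capitals.
Cox6b1: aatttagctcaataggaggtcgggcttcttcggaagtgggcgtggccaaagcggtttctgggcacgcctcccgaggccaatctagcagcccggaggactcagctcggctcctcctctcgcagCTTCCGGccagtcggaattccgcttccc

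Cox4i1 and Cox5a are nuclear subunits that join the catalytic core early, and Cox5b is a matrix-side subunit that binds zinc. The level of Cox4i1 was 1176 and 1061 in the input, 2588 and 1585 in the PABP1 IP and 479 and 418 in the GFP IP. The PABP1 IP arrays were both above the input and differed between themselves (0.86 ± 0.27, adjusted p = 0.0441), and the GFP IP was below (-1.32 ± 0.27, adjusted p = 0.0119). The other 2 ran the same way. Cox5a had 0.89 ± 0.24 (adjusted p = 0.028) and -1.08 ± 0.24 (adjusted p = 0.0155). Cox5b had 0.98 ± 0.24 (adjusted p = 0.021) and -1.72 ± 0.24 (adjusted p = 0.00404). Under cyclic loess normalization Cox4i1, Cox5a and Cox5b lost their calls in PABP1 IP against input (0.12, 0.24 and 0.31). Cox4i1 and Cox5a also lost theirs in GFP IP against input (-0.27 and -0.17).

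The level of Cox5a was 475 and 426 in the input, 1029 and 674 in the PABP1 IP and 218 and 206 in the GFP IP. The level of Cox5b was 636 and 592 in the input, 1500.0 and 972 in the PABP1 IP and 182 and 191 in the GFP IP. In both, as in Cox4i1, PABP1 IP replicate 1 on slide 1 was the highest array and the groups did not overlap.

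Several subunits of complex IV come in isoforms of broad and of restricted use. Cox6a1 is the broad and Cox6a2 the heart and skeletal muscle form. The level of Cox6a1 was 1713 and 1680.4 in the input, 2775 and 1289 in the PABP1 IP and 666 and 699 in the GFP IP. Its PABP1 IP arrays lay on both sides of the input (0.16 ± 0.37, adjusted p = 0.748), its GFP IP lay below (-1.31 ± 0.37, adjusted p = 0.0312), and between the IPs it had -1.47 ± 0.37 (adjusted p = 0.0181), which became 0.38 under cyclic loess normalization.

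The level of Cox6a2 was 0.476 and 0.433 in the input, 1.49 and 1.09 in the PABP1 IP and 0.246 and 0.295 in the GFP IP. It was dim but above background on all 6 arrays, rose in the PABP1 IP (1.49 ± 0.22, adjusted p = 0.00381) and fell in the GFP IP (-0.75 ± 0.22, adjusted p = 0.0344). Cox7a2 is the broad and Cox7a1 the muscle form of the same subunit.

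The level of Cox7a2 was 151 and 154 in the input, 313 and 308 in the PABP1 IP and 56.5 and 47.4 in the GFP IP. The level of Cox7a1 was 162 and 138 in the input, 596 and 459 in the PABP1 IP and 63.2 and 53.8 in the GFP IP. Neither gene's groups overlapped: Cox7a2 had 1.03 ± 0.16 (adjusted p = 0.00495) in PABP1 IP against input and -1.56 ± 0.16 (adjusted p = 0.00228) in GFP IP against input, and Cox7a1 had 1.81 ± 0.21 (adjusted p = 0.00198) and -1.36 ± 0.21 (adjusted p = 0.00513).

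Cox8a is the broad and Cox8b the muscle form. The level of Cox8a was 504 and 488 in the input, 1569 and 972 in the PABP1 IP and 331 and 323 in the GFP IP. It rose in the PABP1 IP (1.32 ± 0.26, adjusted p = 0.00944) and did not pass in the GFP IP (-0.60 ± 0.26, adjusted p = 0.0983). The level of Cox8b was 0.117 and 0.179 in the input, 0.415 and 0.494 in the PABP1 IP and 0.0428 and 0.110 in the GFP IP, with 1.65 ± 0.49 (adjusted p = 0.0359) and -1.08 ± 0.49 (adjusted p = 0.111) against the input, from signals near background.

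Cox6b2 is the testis form of the subunit that Cox6b1 supplies elsewhere. The level of Cox6b2 was 30.0 and 29.1 in the input, 89.0 and 85.9 in the PABP1 IP and 9.40 and 12.0 in the GFP IP. The groups were far apart, with 1.57 ± 0.18 (adjusted p = 0.00195) in the PABP1 IP and -1.48 ± 0.18 (adjusted p = 0.00292) in the GFP IP against the input, and -3.04 ± 0.18 (adjusted p = 0.000459) between the IPs. The isoforms were not tested against each other.

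Muscle markers were measured beside the 3 muscle forms, and single markers did not all move with them. The summed level of 12 cardiac and skeletal muscle genes was 38.7 to 41.9 in the input, 85.0 to 91.6 in the PABP1 IP and 14.5 to 16.1 in the GFP IP. Among them Actn2, Myh6, Nppa and Ryr2 were not above background in both inputs. Of 9 tested, 2 rose and 2 fell in PABP1 IP against input and 7 fell in GFP IP against input. Those that rose in the former were the myosin light chains Myl2, by 1.96, and Myl7, by 1.53, and those that fell were Tnni3, cardiac troponin I, by 1.47, and Mybpc3, cardiac myosin-binding protein C, by 1.51. The part of muscle cells in the isoform values was not tested, and in RNA from many cells, fewer cells of a type and less RNA per cell cannot be told apart.

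Cox6c, Cox7b and Cox7c are small subunits that span the membrane, and Cox7a2l is known for joining complexes III and IV into supercomplexes. The level of Cox7c was 4.31 and 5.91 in the input, 15.4 and 31.4 in the PABP1 IP and 5.91 and 2.71 in the GFP IP. It rose in the PABP1 IP (2.12 ± 0.51, adjusted p = 0.0186), but in each IP the slide 2 array was over 1 log2 unit above the slide 1 array (1.03 and 1.12), and the GFP IP overlapped the input (-0.33 ± 0.51, adjusted p = 0.595).

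The level of Cox7b was 113 and 106 in the input, 295 and 209.9 in the PABP1 IP and 32.4 and 38.3 in the GFP IP. Its groups did not overlap (1.18 ± 0.22, adjusted p = 0.00845 and -1.64 ± 0.22, adjusted p = 0.00368 against the input). The level of Cox6c was 137 and 140.5 in the input, 263 and 264 in the PABP1 IP and 107 and 65.4 in the GFP IP. It rose in the PABP1 IP (0.92 ± 0.26, adjusted p = 0.0319) and did not pass in the GFP IP (-0.73 ± 0.26, adjusted p = 0.0633). Cox7a2l had 1.85 ± 0.30 (adjusted p = 0.005) and -0.46 ± 0.30 (adjusted p = 0.23).

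The probe named Cox4nb ran at 8.25 and 7.33 in the input, 22.5 and 38.0 in the PABP1 IP and 12.6 and 5.08 in the GFP IP. It rose in the PABP1 IP (1.91 ± 0.49, adjusted p = 0.0228), overlapped the input in the GFP IP (0.041 ± 0.49, adjusted p = 0.948) and was higher on slide 2 in both IPs, by 0.75 and 1.31. Its other probe gave 0.24 in PABP1 IP against input and 0.73 between the IPs (limma adjusted p = 0.246 over all probes), where the probe read here had -1.87 ± 0.49 (adjusted p = 0.0207). With the mean of both probes the calls in PABP1 IP against input (1.08, adjusted p = 0.0763) and between the IPs (-0.57, adjusted p = 0.266) were lost.

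Complex V is built of a catalytic F1 head, a membrane rotor of c subunits and a stator. Against the input, 12 of 16 genes rose in the PABP1 IP and 4 did not pass the test, with a median of 1.14. In the GFP IP, 14 of 16 fell and 2 did not pass, with a median of -1.02. Between the IPs, 15 of 16 were lower in the GFP IP, with a median of -2.30, and the exception was the probe named Atp5s.

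In the F1 head, Atp5a1 and Atp5b encode the alpha and catalytic beta subunits, and Atp5c1, Atp5d and Atp5e the central stalk subunits gamma, delta and epsilon. The level of Atp5a1 was 227 and 215 in the input, 208 and 211 in the PABP1 IP and 112 and 103 in the GFP IP. Both PABP1 IP arrays lay just under the input (-0.077 ± 0.15, adjusted p = 0.696), and the GFP IP was 2.06-fold lower (-1.04 ± 0.15, adjusted p = 0.00429). In the PABP1 IP against the input it was called lower under quantile normalization (-0.75, adjusted p = 0.00948) and cyclic loess (-0.63, adjusted p = 0.0227). Its difference between the IPs was -0.96 ± 0.15 (adjusted p = 0.00348), which turned to 0.32 under quantile and 0.36 under cyclic loess normalization.

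The level of Atp5b was 284 and 284 in the input, 246 and 365 in the PABP1 IP and 200.0 and 126 in the GFP IP. The PABP1 IP arrays straddled the input (0.080 ± 0.30, adjusted p = 0.847), and the GFP IP lay below without passing the test (-0.84 ± 0.30, adjusted p = 0.065). Its 3 probes disagreed against the input: the other probes gave 0.99 and 1.79 in the PABP1 IP and -0.10 and 0.61 in the GFP IP. Both the flat value and the lower GFP IP thus rest on the brightest probe alone. Between the IPs Atp5b had -0.92 ± 0.30 (adjusted p = 0.0448), and the other probes gave -1.09 and -1.18. For the probe read here that difference turned to 0.42 under quantile and 0.49 under cyclic loess normalization.

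The stalk subunits rose where the alpha subunit did not pass the test. The level of Atp5c1 was 258 and 263 in the input, 474 and 499 in the PABP1 IP and 141 and 133 in the GFP IP. The level of Atp5d was 121 and 105 in the input, 246 and 239 in the PABP1 IP and 39.5 and 32.5 in the GFP IP. The level of Atp5e was 432 and 463 in the input, 1147 and 1042 in the PABP1 IP and 156 and 124 in the GFP IP.

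None of these 3 overlapped between groups. The rise in the PABP1 IP was 0.90 ± 0.15 for Atp5c1, 1.11 ± 0.18 for Atp5d and 1.29 ± 0.18 for Atp5e (adjusted p = 0.00545, 0.00507 and 0.00349). The differences in GFP IP against input were -0.93 ± 0.15, -1.65 ± 0.18 and -1.69 ± 0.18 (adjusted p = 0.00558, 0.00238 and 0.00239).

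Atp5g1, Atp5g2 and Atp5g3 encode the same mature rotor subunit c with different import sequences. The level of Atp5g1 was 115 and 110.3 in the input, 619.6 and 489 in the PABP1 IP and 79.3 and 73.1 in the GFP IP. The level of Atp5g2 was 362 and 318 in the input, 953 and 972 in the PABP1 IP and 232 and 168 in the GFP IP. The level of Atp5g3 was 173 and 202 in the input, 328 and 319 in the PABP1 IP and 107 and 82.1 in the GFP IP.

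All 3 rose in the PABP1 IP and fell in the GFP IP with no overlap between groups. The differences in PABP1 IP against input were 2.29 ± 0.18 (adjusted p = 0.000996) for Atp5g1, 1.50 ± 0.21 (adjusted p = 0.00332) for Atp5g2 and 0.79 ± 0.20 (adjusted p = 0.0219) for Atp5g3. They were, in GFP IP against input, -0.56 ± 0.18 (adjusted p = 0.0469), -0.78 ± 0.21 (adjusted p = 0.0274) and -0.996 ± 0.20 (adjusted p = 0.011). The differences among the 3 genes were not tested, and those of Atp5g1 and Atp5g2 in GFP IP against input were above 0 under cyclic loess normalization (0.21 and 0.12).

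The other subunits belong to the stator and the membrane part, where Atp5l (subunit g), Atp5k (subunit e) and Atp5j2 (subunit f) sit, and Atp5o, Atp5f1, Atp5h and Atp5j form the peripheral stalk. The level of Atp5l was 103 and 95.9 in the input, 624 and 475 in the PABP1 IP and 49.0 and 50.5 in the GFP IP. It stood 5.48-fold above the input in the PABP1 IP (2.45 ± 0.19, adjusted p = 0.00097) and at -0.997 ± 0.19 (adjusted p = 0.00957) in the GFP IP. Its gap between the IPs, 10.9-fold (-3.45 ± 0.19, adjusted p = 0.000459), was the largest of the 43 genes.

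Of the 6 others, 5 rose in the PABP1 IP and all 6 fell in the GFP IP, against the input. Their differences ran from 0.80 (Atp5o) to 1.32 (Atp5j2) in the former and from -1.64 (Atp5k) to -0.86 (Atp5f1) in the latter. Atp5j, at 0.91 ± 0.33 (adjusted p = 0.0642), did not pass in the PABP1 IP, where its arrays were 585 and 321 beside 245 and 219 in the input. For Atp5f1 the 2 other probes gave 2.38 and 2.80 in the PABP1 IP, against 1.17 for the probe read here, and -0.20 and 0.25 in the GFP IP, so its fall there rests on 1 probe.

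The probe named Atp5s ran at 0.804 and 1.16 in the input, 1.17 and 0.965 in the PABP1 IP and 0.673 and 0.737 in the GFP IP. It passed no comparison (0.13 ± 0.24, adjusted p = 0.663, -0.46 ± 0.24, adjusted p = 0.151 and -0.59 ± 0.24, adjusted p = 0.0755), and its other probe gave 2.26 in PABP1 IP against input. Between the IPs the other probe gave -2.86 (limma adjusted p = 0.00085 over all probes). The mean of both probes gave -1.73 there (limma adjusted p = 0.00217). Its place as the exception of complex V between the IPs thus rests on the probe chosen.

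Set side by side, the complexes differed most in GFP IP against input. Relative to the median of all genes, the median of complex II was 0.65, that of complex III -0.79, of complex IV -0.58 and of complex V -0.51. The same medians were 1.56, 0.86, 1.28 and 1.02 in PABP1 IP against input, and -0.53, -1.41, -1.80 and -1.72 between the IPs. Complex II rests on 4 genes and these differences between complexes were not tested. On single arrays, the complex II median relative to all genes was 0.36 and 0.87 in the GFP IP, where those of the other complexes lay between -0.98 and -0.49.

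**Figure D3:**
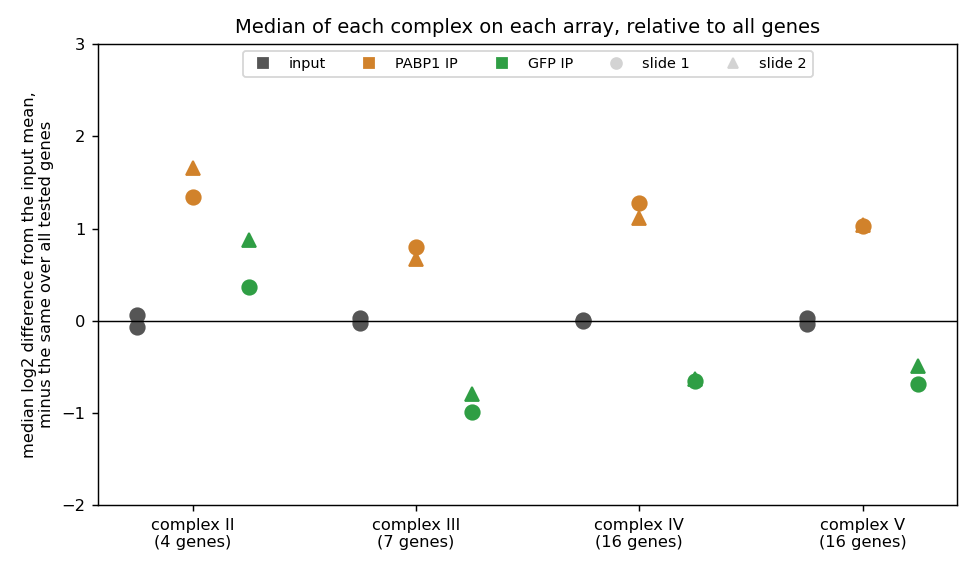
For each array, the median over a complex's tested genes of the log2 difference from the input mean, minus the same median over all tested genes; circles are slide 1 and triangles slide 2. Both GFP IP arrays lie above the inputs for complex II and below them for complexes III, IV and V, and all PABP1 IP arrays lie above the inputs.

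The slides hold several groups, so each comparison was also made with slide as a block and on slide 1 alone, where the spread comes from the 2 inputs only. With the block, more of all 14973 genes were called. In PABP1 IP against input 5402 were higher, beside 4502 in the main fit. In GFP IP against input 6244 were lower, beside 5479, and between the IPs 7690, beside 6186. Of the 43 genes, 35 were higher in the first comparison, 33 lower and 1 higher in the second, and 41 lower in the third. On slide 1 alone the median of the 43 relative to all genes was 1.03, -0.64 and -1.72 in these comparisons. In the main fit it was 1.05, -0.51 and -1.65. On both slides, 42 of the 43 genes lay lower in the GFP IP than in the PABP1 IP. Of the 43 genes, 2 (Uqcrb and Cox7c, 4.65%) were over 1 log2 unit higher on slide 2 in both IPs, as were 1.52% of all genes tested. Of the 43, 26 lay within 0.5 between slides in both IPs. The counts of 42 and 26 were not made over all genes.

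**Figure D4:**
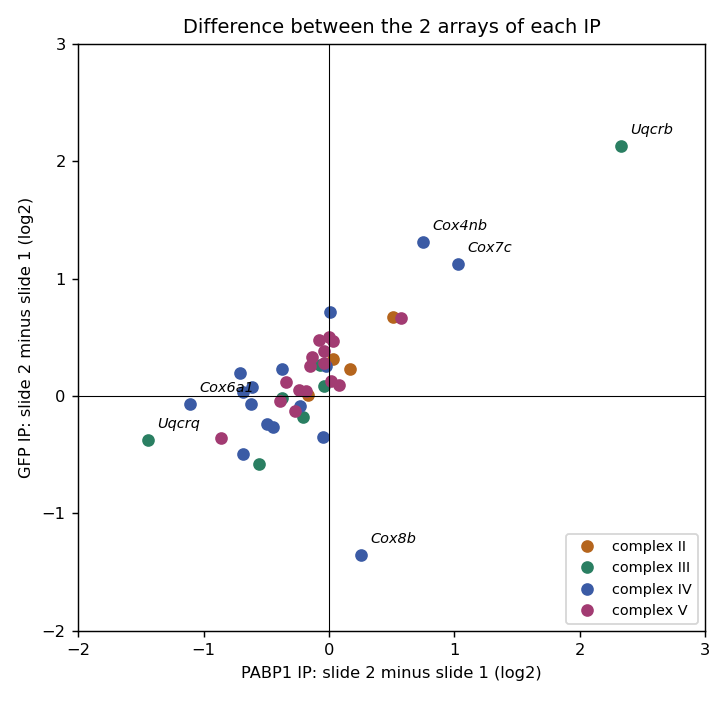
Slide 2 minus slide 1 in log2 units for the 43 tested genes, in the PABP1 IP (horizontal) and in the GFP IP (vertical), 1 array each. Most genes lie near 0, Uqcrb lies above 2 on both axes, and Uqcrq and Cox6a1 lie below -1 in the PABP1 IP alone.

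Genes that work beside these complexes were read from lists, whose counts stand beside the shares of all genes tested. In PABP1 IP against input 30.1% of all genes were higher and 23.8% lower. In GFP IP against input 18.5% were higher and 36.6% lower, and between the IPs 41.3% were lower. Of 36 complex I subunits, 27 rose and 2 fell in PABP1 IP against input, 1 rose and 27 fell in GFP IP against input, and 34 were lower in GFP IP against PABP1 IP. Cycs, the somatic cytochrome c that carries electrons from complex III to IV, rose by 1.76 in the PABP1 IP and fell by 0.90 in the GFP IP against the input. Atpif1, the inhibitor of ATP synthase, had 0.47 in the former without passing the test (adjusted p = 0.253) and fell by 1.74 in the latter. Over the 9 tested genes of cytochrome c, coenzyme Q synthesis and this inhibitor, 6 rose and none fell in the former. In the latter 4 fell and none rose, and their median was 0.14 relative to all genes.

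Of 25 assembly factors of complexes II to V, 17 rose and 1 fell in PABP1 IP against input. In GFP IP against input 3 rose and 12 fell, with a median of -0.083 relative to all genes. Acn9, an assembly factor of complex II, had the largest rise in the PABP1 IP, 2.78 ± 0.19 (limma adjusted p = 0.000898). Lrpprc, which stabilises mitochondrial mRNA, was the 1 that fell there, by 1.54. Tmem70, an assembly factor of ATP synthase, and Cox15, a haem A synthase, rose in the GFP IP by 1.27 and 1.25.

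The citric acid cycle, which shares succinate dehydrogenase with the chain, lay near the median of all genes in the PABP1 IP. Of 13 of its enzymes, 4 rose and 3 fell in PABP1 IP against input, with a median of 0.10 beside 1.17 for complexes II to V. Of the 13, 10 fell and 1 rose in GFP IP against input: Suclg2, the GTP-forming subunit of succinyl-CoA ligase, rose by 2.30. The difference between the lists was not tested. Subunits encoded by mitochondrial DNA were not analysed here.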

How the data were processed

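RNA of 6 samples was measured on 6 arrays. Spot intensity was extracted with Agilent Feature Extraction 9.1.3.1, per the file headers, and its processed signal already has background subtracted. The authors also deposited a table of mean signal per group with standard errors and a quality score, scaled to each array's median by its own header; the score and errors were not used.

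Control and outlier spots were left out, and log2 processed signals were averaged per probe and centred on the array's 75th percentile. Kept probes were well above background on every array of some group. Each gene, the 45 included, was read by its brightest probe over all arrays, chosen before this filter. The 14973 genes whose brightest probe was kept were tested. limma 3.58.1 in R 4.3.3 (lmFit, eBayes) was fitted to the 6 arrays together, with a term for group alone (3 residual degrees of freedom), two-sided, with Benjamini-Hochberg adjustment over all genes. It was tested on simulated data.

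Values in every array are given for all of complex II, the 2 highest and 2 lowest genes of each other complex in each comparison, genes called against the majority, and a chosen set of isoforms and catalytic subunits; list genes are those with the largest differences. The genes, lists and this rule were chosen with earlier results of these data known. Replicate numbers did not pair the arrays (see the closing section), and slides were used as a block only as an alternative. Figures were drawn with matplotlib 3.10.9 and sequences came from RefSeq, GRCm38.p6.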

Additional observations from a re-analysis of the deposited data

How the results depend on the processing

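Counts and medians below are for the 43 genes, the median always being relative to that of all genes. In GFP IP against input, where 29 were lower, 1 higher and the median was -0.51, quantile normalization gave 15 lower, 2 higher and -0.24, cyclic loess 14, 2 and -0.15, and normexp background correction 19, 3 and -0.025. Under each of these alternatives the genes higher were Sdhc and Uqcrfs1, joined by Sdhd with normexp. Scaling to the median of all probes left 11 lower and spike-in scaling 0, where 1733 and 325 of all genes were lower. Without the filter on dim probes the median was 0.049, and within slide 1 it was -0.64. In PABP1 IP against input, where 33 were higher, none lower and the median was 1.05, quantile normalization gave 19 higher, 3 lower (Uqcrc1, Uqcrc2 and Atp5a1) and 0.45, and cyclic loess the same 3 lower and 0.67. The median was 1.66 with normexp and 1.64 without the filter. In GFP IP against PABP1 IP, where 40 were lower, none higher and the median was -1.65, quantile normalization gave 25 lower and -0.76, cyclic loess 22 lower, 1 higher and -0.76, and no filter -1.82. The cause of these shifts was not tested.

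Leaving out 1 array at a time gave 17 to 30 lower, 0 to 1 higher and medians of -0.64 to -0.51 in GFP IP against input, with 17 lower and 0 higher without either input replicate. It gave 21 to 32 higher, the lowest without input replicate 2 (22 without input replicate 1), with medians of 1.03 to 1.07 in PABP1 IP against input, and 37 to 40 lower with medians of -1.65 to -1.45 in GFP IP against PABP1 IP; a lone array was assumed to vary like the other groups. The replicate numbers did not pair the arrays: same-numbered deviations correlated at 0.196 between input and PABP1 IP, -0.058 between input and GFP IP and -0.651 between the IPs. A replicate block gave 23 lower in GFP IP against input, 29 higher in PABP1 IP against input and 38 lower in GFP IP against PABP1 IP. Crossing the numbers of the IPs, chosen after seeing the data and equal to pairing by slide, gave 42 lower.

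Single genes turned direction as follows; unless stated, the value was called in the main setting and not in the alternative. For the GFP IP against the input, cyclic loess gave 0.21 for Atp5g1 and 0.12 for Atp5g2, the median of all probes 0.014 for Atp5g1, and normexp 0.067 for Atp5g1. Spike-in scaling gave 0.078 for Atp5c1, 0.15 for Atp5f1, 0.44 for Atp5g1, 0.22 for Atp5g2, 0.0095 for Atp5g3, 0.0086 for Atp5l, 0.25 for Cox6a2 and 0.16 for Cox6b1. Against the input in the PABP1 IP, spike-in scaling gave values called there and not in the main setting, of 2.20 for Atp5a1, 2.12 for Sdha, 1.76 for Uqcrc1 and 2.17 for Uqcrc2. In GFP IP against PABP1 IP, quantile normalization gave 0.32 for Atp5a1, 0.42 for Atp5b and 0.33 for Uqcrc1, and cyclic loess 0.36 for Atp5a1, 0.49 for Atp5b, 0.38 for Cox6a1, 0.093 for Sdhc, 0.40 for Uqcrc1 and 0.030 for Uqcrfs1.

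Among all genes called in GFP IP against input, the share called higher was 33.6% here, 42.5% under quantile, 50.4% under cyclic loess, 67.6% under median and 92.5% under spike-in scaling. In PABP1 IP against input it was 55.8% here and 98.3% under spike-in scaling, and in GFP IP against PABP1 IP 35.0% here, 48.0% under median, 53.0% under cyclic loess and 6.71% under spike-in scaling. The median of all genes moved by 0.26 to 1.01 in GFP IP against input under quantile, loess, median and spike-in scaling, so directions against the input are relative. Signals near background limit Cox8b and Atp5s.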

Other observations

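The authors' deposited table, scaled to each array's median, held 1 row for the accession of 33 of the genes. Its log2 ratios of group means lay below 0 for all 33 in GFP IP against PABP1 IP, above 0 for 32 in PABP1 IP against input, and above 0 for 9 and below 0 for 24 in GFP IP against input. For 3 genes the authors' deposited table and the scanner values scaled to the median were far apart against the input. In GFP IP against input the authors' deposited table gave 5.38 for Uqcrb, 4.69 for Cox7c and 2.40 for Cox6c, where the scanner values gave 0.55, 0.24 and -0.15. In GFP IP against PABP1 IP the authors' deposited table gave -1.92, -2.23 and -1.97 for the same genes, where the scanner values gave -1.67, -2.07 and -1.27. The authors' deposited table names accessions and not probes, so the probe behind each row is unknown, and the cause of the gap was not tested. Across 11070 genes, which are not independent replicates, Spearman's rho between the authors' deposited means and the scanner values was 0.884 in the input, 0.912 in the PABP1 IP and 0.916 in the GFP IP.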
